A study of Mus musculus with 14 samples.

Results

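Neurog2, Eomes, Insm1, Neurod1, Neurod2, Neurod4, Neurod6 and Prox1 encode 8 transcription factors that act while a precursor of the dentate gyrus becomes a granule neuron. They were picked by gene symbol, and each of the 8 had 1 row among the 15119 genes of the deposited table. RNA was sequenced in 14 libraries of GFP-positive cells from the dentate gyrus of B6.Cg-Tg(Nes-EGFP)1Yamm mice, whose transgene places EGFP under regulatory elements of Nestin, a filament gene of neural precursors. A sorter divided the cells by dihydroethidium, a dye whose fluorescence reports reactive oxygen species (ROS), into the classes ROS+ (5 libraries), ROS++ (5 libraries) and ROS+++ (4 libraries). All classes share strain, transgene, tissue and standard housing, and no class was treated. The labels give neither the age, sex nor number of the animals behind a library, nor whether libraries of 1 class came from separate animals, and the p-values therefore measure the spread among these libraries alone, which may be technical.

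Reads over the listed genes totalled 20832009 to 25313902 in the 5 ROS+ libraries. The totals ran between 18325361 and 23454022 for ROS++, and between 12704227 and 20998589 for ROS+++. Levels are given in CPM, a gene's reads per 1000000 reads of the library, and 3 reads, the most that a count of 0 allows at 95% confidence, correspond to 0.119 to 0.236 CPM, for counting error only. Changes are differences in log2(CPM + 1), which understate the change of a gene near 0, and a gene was called at an adjusted p under 0.05 (limma, Benjamini-Hochberg over 15102 genes). Nes itself, the gene behind the reporter, had 11.2 to 23.0 CPM across ROS+ libraries, 77.6 to 126.8 across ROS++ libraries and 137 to 321 across ROS+++ libraries. The 3 ranges do not overlap, and the class with the least dye signal held the least RNA of the gene that names the sorted cells.

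Granule neurons are made throughout adult life from radial glia-like stem cells of the subgranular zone, by way of dividing intermediate progenitors and neuroblasts. Proneural factors of the basic helix-loop-helix (bHLH) family pair with E-proteins, bind the DNA word CANNTG, known as the E-box, and switch on the next genes of the neuronal programme. In this lineage Neurog2 and Eomes are known from progenitors and Neurod1 from late progenitors and neuroblasts, while Neurod2 and Neurod6 accompany differentiation. Prox1 gives the cells their granule neuron identity and is kept by mature granule neurons.

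The 8 genes were divided into 2 groups by whether they were called lower in ROS++ against ROS+. Neurod1, Neurod2, Neurod6 and Prox1 were highest in ROS+ and were already lower in ROS++, with changes between -5.03 and -2.71 on the log2(CPM + 1) scale. Eomes, Insm1, Neurod4 and Neurog2 were not called lower in ROS++ against ROS+, and Insm1 was called higher there. This second group shares the lack of a lower call and not a common course, and Neurog2 was not called in any comparison. In ROS+++ the RNA of all 8 was scarce, and 7 of them were called lower than in ROS+. Whether a lower level means fewer cells of a type or less RNA per cell cannot be told apart in such bulk libraries.

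**Figure D1:**
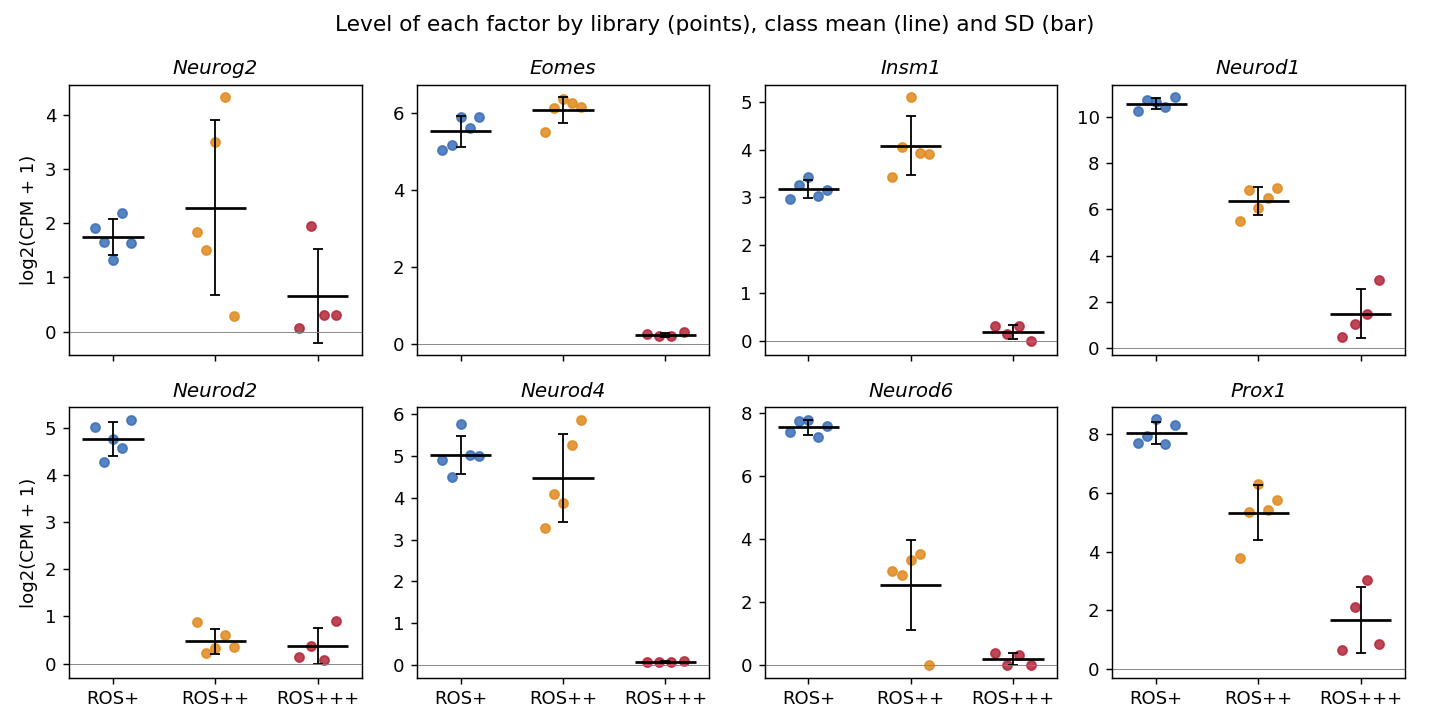
Level of each of the 8 factors in each library, as log2(CPM + 1) on the vertical axis, by ROS class on the horizontal axis, with the class mean as a line and the SD as a bar. Eomes, Insm1 and Neurod4 lie near 0 in the 4 ROS+++ libraries, below all libraries of the other classes, while Neurod1, Neurod2, Neurod6 and Prox1 are lower in every ROS++ library than in any ROS+ library.

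Promoter sequence was set beside these groups, because bHLH factors act through E-boxes and Neurod1 is itself a known target of neurogenins. RefSeq (GRCm38.p6) promoters were found for 7 of the 8 genes, all but Insm1, and the 250 bases before each start were searched on both strands. Prox1 and Neurod4 had 2 promoter entries each, and how the entries of a gene differ is not reported here. Neurod2 held 3 CANNTG words, Neurod6 and Prox1 2 each, Neurod1 1, and Neurog2, Eomes and Neurod4 0. Each of the 4 factors that were lower in ROS++ held an E-box word in this window, and none of the other factors matched did. The groups had been formed from the levels and hold few promoters, and a link between E-box words and levels was not tested. Over all 32851 promoters 66.2% held CANNTG, so that a match is common. The word CAGATG or its reverse complement, which proneural factors are known to bind, occurred in 14.4% of all promoters, once in Neurod2 and once in Prox1. The palindrome CAGCTG occurred in 13% of all promoters and in none of the 7. The 5 sequences shown are those of the 4 factors with an E-box word and of Eomes, which stayed high in ROS++. They run 5′ to 3′ on the gene's strand, with E-box words in capitals. Each ends before the start in RefSeq, which for Prox1 and Eomes lies outside the GENCODE gene whose coordinates are given with the values. The Neurod1 and Neurod2 windows are shortened to the 135 and 247 bases outside the GENCODE gene. CAGATG is part of the CANNTG count. A match describes letters, not binding.
Neurod1, chr2:79456752-79456886, minus strand: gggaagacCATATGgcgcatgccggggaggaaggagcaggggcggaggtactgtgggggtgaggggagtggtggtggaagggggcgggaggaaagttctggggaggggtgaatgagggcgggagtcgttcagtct
Neurod2, chr11:98329649-98329895, minus strand: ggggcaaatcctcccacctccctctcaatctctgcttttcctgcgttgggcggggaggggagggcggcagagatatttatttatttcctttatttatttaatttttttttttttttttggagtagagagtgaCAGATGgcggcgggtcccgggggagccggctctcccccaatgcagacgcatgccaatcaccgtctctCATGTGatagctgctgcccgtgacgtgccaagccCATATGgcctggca
Neurod6, chr6:55681264-55681513, minus strand: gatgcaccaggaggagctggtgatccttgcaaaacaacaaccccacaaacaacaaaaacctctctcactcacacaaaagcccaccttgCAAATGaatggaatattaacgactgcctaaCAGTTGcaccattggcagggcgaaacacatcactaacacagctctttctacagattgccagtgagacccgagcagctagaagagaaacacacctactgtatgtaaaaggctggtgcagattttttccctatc
Prox1, chr1:190170828-190171077, minus strand: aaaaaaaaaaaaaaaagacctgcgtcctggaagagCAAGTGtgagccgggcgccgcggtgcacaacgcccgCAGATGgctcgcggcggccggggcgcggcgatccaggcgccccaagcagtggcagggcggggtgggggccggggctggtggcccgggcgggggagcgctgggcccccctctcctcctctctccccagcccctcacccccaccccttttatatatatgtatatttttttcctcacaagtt
Eomes, chr9:118477939-118478188, plus strand: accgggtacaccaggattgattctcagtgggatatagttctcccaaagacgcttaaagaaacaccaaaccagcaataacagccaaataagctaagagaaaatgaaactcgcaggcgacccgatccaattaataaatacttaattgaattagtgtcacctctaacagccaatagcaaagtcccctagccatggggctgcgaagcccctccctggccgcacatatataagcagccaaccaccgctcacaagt

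Neurog2 (ENSMUSG00000027967, chr3:127633135-127635631, plus strand, GRCm38), the bHLH factor that opens the cascade, was the scarcest member in ROS+. The gene had 2.77, 2.16, 1.52, 3.58 and 2.11 CPM in the ROS+ libraries. The ROS++ libraries held 2.57, 1.82, 10.3, 19.1 and 0.218 CPM, and the ROS+++ libraries 0.0477, 2.85, 0.238 and 0.236 CPM. The ROS++ libraries spread from 4 reads to 374 reads and enclose the whole ROS+ range, and in ROS+++ replicates 2 to 4 lie within the ROS++ range, with replicate 2 (58 reads) also within that of ROS+. The change was 0.54 ± 0.60 (SE) for ROS++ minus ROS+ (limma, adjusted p = 0.542), -1.09 ± 0.64 for ROS+++ minus ROS+ (adjusted p = 0.150) and -1.63 ± 0.64 for ROS+++ minus ROS++ (adjusted p = 0.0509), so that Neurog2 was not called in any comparison. The last of these passed in 6 of 23 alternatives, over which its adjusted p ranged between 0.00726 and 0.133. It passed without ROS+++ replicate 2 (adjusted p = 0.0235), ROS++ replicate 5 (0.00726) or ROS++ replicate 2 (0.0454), with the deposited log2 values (0.0485), with a pseudocount of 0.25 CPM (0.0478) and with a replicate block (0.0368).

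Eomes (ENSMUSG00000032446, chr9:118478212-118486132, plus strand), the T-box factor also called Tbr2, is the standard marker of neuronal intermediate progenitors. It had 31.9, 35.5, 59.1, 47.9 and 58.7 CPM in the ROS+ libraries. ROS++ libraries had 45.0, 69.4, 82.1, 76.0 and 71.4 CPM, and the ROS+++ libraries 0.191, 0.147, 0.143 and 0.236 CPM. ROS++ replicate 1 lies within the ROS+ range and the other 4 ROS++ libraries above it, while each ROS+++ library held only 3 or 4 Eomes reads. The change in ROS++ minus ROS+, 0.57 ± 0.25, was not called (limma, adjusted p = 0.10), though it passed in 2 of 23 alternatives. Over the 23 alternatives its adjusted p ranged between 0.0308 and 0.236, and 1 of the passes was without ROS++ replicate 1 (adjusted p = 0.0476). Against ROS++, Eomes fell by 5.86 ± 0.27 in ROS+++ (limma, adjusted p = 3.73e-10), the sixth-lowest change of all genes tested. Pooled over libraries, its share of reads was 401-fold lower in ROS+++ than in ROS++ (95% interval 234 to 753, counting error only) and 267-fold lower than in ROS+ (156 to 502).

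Insm1 (ENSMUSG00000068154, chr2:146221921-146225020, plus strand), a zinc-finger repressor that promotes the birth of intermediate progenitors in the developing mouse cortex, was the only member called higher in ROS++. It had 6.83, 8.59, 9.81, 7.12 and 7.88 CPM in the ROS+ libraries. Levels in the ROS++ libraries were 9.79, 15.7, 33.3, 14.2 and 14.1 CPM, and the ROS+++ libraries 0.239, 0.0982, 0.238 and 0 CPM. The lowest ROS++ library falls just under the highest ROS+ library, so the ranges touch, while all 4 ROS+++ libraries lie far below with 12 reads in all. The change in ROS++ minus ROS+ was 0.92 ± 0.33 (limma, adjusted p = 0.0430), and the call was lost in 10 of 23 alternatives. It was lost without any 1 of the ROS+ libraries (adjusted p = 0.0572 to 0.0868) and without ROS++ replicate 2 (0.0651), 3 (0.123) or 4 (0.0585). In ROS+++ Insm1 fell by 2.98 ± 0.35 against ROS+ (limma, adjusted p = 1.07e-06), and it fell by 3.90 ± 0.35 against ROS++ (adjusted p = 2.60e-07).

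Neurod4 (ENSMUSG00000048015, chr10:130268152-130280240, minus strand), also called Math3, is a bHLH factor of the Neurod family with early proneural roles in the mouse retina and brain. Its levels were 28.6, 21.6, 52.9, 31.3 and 30.8 CPM in ROS+ and 8.75, 15.9, 13.8, 37.1 and 57.4 CPM in ROS++, against a single read in each of the ROS+++ libraries (0.0476 to 0.0787 CPM). In ROS++ the libraries divide, with replicates 1 to 3 below every ROS+ library and replicates 4 and 5 within or above the ROS+ range. The change in ROS++ minus ROS+ was -0.55 ± 0.42 (limma, adjusted p = 0.350) and was not called, whereas Neurod4 fell by 4.95 ± 0.44 in ROS+++ against ROS+ (adjusted p = 3.93e-08) and by 4.40 ± 0.44 against ROS++ (adjusted p = 9.33e-07). Pooled reads gave a 621-fold lower level in ROS+++ than in ROS+, with a wide interval of 242 to 2279 that reflects 4 reads.

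Neurod1 (ENSMUSG00000034701, chr2:79452521-79456751, minus strand), the bHLH factor that adult-born granule neurons need to survive and mature, was by far the most abundant member in ROS+. It had 1211, 1703, 1572, 1357 and 1849 CPM in the ROS+ libraries. The ROS++ libraries held 44.4, 113, 65.2, 89.4 and 122 CPM, and the ROS+++ libraries 0.382, 1.08, 1.76 and 6.77 CPM. No 2 classes overlap, with ROS++ between ROS+ and ROS+++. Neurod1 fell by 4.21 ± 0.37 in ROS++ against ROS+ (limma, adjusted p = 3.28e-07) and by 4.88 ± 0.39 in ROS+++ against ROS++ (adjusted p = 2.05e-07). On the log2(CPM + 1) scale its fall of 9.08 ± 0.39 in ROS+++ against ROS+ (limma, adjusted p = 3.07e-11) was the lowest change of all 15102 genes tested. In pooled reads the level was 747-fold lower in ROS+++ than in ROS+ (95% interval 637 to 881, counting error only) and 17.8-fold lower in ROS++ than in ROS+. Neurod6 had a larger pooled fold in ROS+++ against ROS+, 1283 (717 to 2571, on 11 ROS+++ reads), with overlapping intervals. ROS+++ replicate 4 held 86 of the 153 Neurod1 reads of its class, and without it the level was 1417-fold lower in ROS+++ than in ROS+.

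Neurod2 (ENSMUSG00000038255, chr11:98325415-98329648, minus strand) belongs to the same bHLH family and acts in differentiating excitatory neurons. It had 31.4, 18.3, 26.3, 22.8 and 35.0 CPM in the ROS+ libraries. The ROS++ libraries held 0.838, 0.161, 0.256, 0.511 and 0.273 CPM, and the ROS+++ libraries 0.0955, 0.294, 0.0476 and 0.866 CPM. Only ROS+ libraries reached 1 CPM, so the gene entered the test through that class alone, and the ROS++ and ROS+++ libraries cover the same low range. Neurod2 fell by 4.29 ± 0.31 in ROS++ (limma, adjusted p = 1.59e-08) and by 4.39 ± 0.33 in ROS+++ (adjusted p = 4.82e-09), both against ROS+. Between ROS+++ and ROS++ the change was -0.11 ± 0.33 (adjusted p = 0.824), and the pooled level in ROS+++ was 0.660 of that in ROS++ with a counting interval of 0.366 to 1.16, on 20 reads and 40 reads. Without ROS+++ replicate 4, which held 11 of those reads, it was 0.358.

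Neurod6 (ENSMUSG00000037984, chr6:55677822-55681263, minus strand), also called Math2 or Nex, is a bHLH factor of young glutamatergic neurons. The gene had 167, 216, 221, 150 and 194 CPM in the ROS+ libraries. Levels in the ROS++ libraries were 6.86, 6.22, 9.04, 10.4 and 0 CPM, and the ROS+++ libraries 0.286, 0, 0.238 and 0 CPM. All ROS+ libraries lie above all others, and ROS++ replicate 5 had no Neurod6 read although it held the most Neurod1 and Neurod4 reads of its class. Neurod6 fell by 5.03 ± 0.50 in ROS++ against ROS+ (limma, adjusted p = 5.35e-07), the fourth-lowest change of all genes tested, and by 7.39 ± 0.53 in ROS+++ against ROS+ (adjusted p = 2.11e-09). In ROS+++ against ROS++ it fell by 2.36 ± 0.53 (adjusted p = 0.00164), with overlapping libraries because of the ROS++ library at 0, and this call was lost in limma-voom on the recovered reads (adjusted p = 0.115). Without ROS++ replicate 5 the call held (adjusted p = 7.12e-07).

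Prox1 (ENSMUSG00000010175, chr1:190118035-190170714, minus strand), a homeobox factor, stands at the end of the cascade. It had 206, 246, 366, 204 and 321 CPM in the ROS+ libraries. The ROS++ libraries held 12.9, 39.8, 78.9, 41.6 and 53.7 CPM, and the ROS+++ libraries 0.573, 3.34, 7.24 and 0.787 CPM. The 3 classes do not overlap, and ROS+++ replicate 3 comes closest to the class before it. Prox1 fell by 2.71 ± 0.46 in ROS++ against ROS+ (limma, adjusted p = 0.000245), by 6.37 ± 0.48 in ROS+++ against ROS+ (adjusted p = 8.90e-09) and by 3.67 ± 0.48 in ROS+++ against ROS++ (adjusted p = 1.83e-05). Of the factors called lower in ROS++ it had the smallest fall.

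Some genes overlap a member by their start and end coordinates, and whether exons are shared was not compared. The library method keeps no strand, so reads in any bases shared with an antisense gene cannot be told apart by strand. How the deposited counts treated such reads is not given. Prox1os, antisense to Prox1, averaged 89.0 ± 17.0 CPM across ROS+ libraries, 20.05 ± 5.13 across ROS++ libraries and 4.34 ± 1.05 across ROS+++ libraries (SD), and it fell by 2.11 ± 0.24 in ROS++ against ROS+ (limma, adjusted p = 2.40e-06). Gm28172, a second antisense gene there, averaged 2.81 ± 2.22 CPM across ROS+ libraries, 0.786 ± 0.528 across ROS++ libraries and 0.0610 ± 0.0930 across ROS+++ libraries. Cerkl, which overlaps Neurod1 on the same strand, averaged 15.3 ± 3.37 CPM across ROS+ libraries, 3.05 ± 2.21 across ROS++ libraries and 4.45 ± 2.71 across ROS+++ libraries. Its change in ROS+++ minus ROS++ was 0.47 ± 0.44 (limma, adjusted p = 0.418), beside the fall of Neurod1.

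Counted together, 4 of the 8 members were called lower in ROS++ against ROS+, where 13.2% of all genes tested were, and 1 was called higher, where 16.4% were. The libraries of those 4 did not overlap, with the ROS++ libraries lower, which held for 10.9% of all genes. In ROS+++ against ROS+, 7 members were called lower against 40.0% of all genes, and the same 7 had non-overlapping libraries against 33.2%. In ROS+++ against ROS++, 6 members were called lower against 29.2% of all genes, and 5 had non-overlapping libraries against 19.5%. The median change of the 8 members was -1.63 in ROS++ minus ROS+, -5.12 in ROS+++ minus ROS+ and -3.78 in ROS+++ minus ROS++, beside -0.03, -0.44 and -0.34 over all genes. The comparisons share libraries. Eomes, Insm1, Neurod4 and Neurod6 reached 1 CPM only in ROS+ and ROS++ libraries, and Neurod2 only in ROS+ libraries. These genes passed the filter on low values only through the classes where they were higher. Scaling by median-of-ratios factors moved the median of all genes by 0.40 in ROS+++ minus ROS+ and by 0.37 in ROS+++ minus ROS++, and changed the share of higher genes among the calls to 50.6% and 52.2%, beside 32.5% and 25.3%. The falls of the members called lower in ROS+++ exceed that shift, and each kept its call under it.

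**Figure D2:**
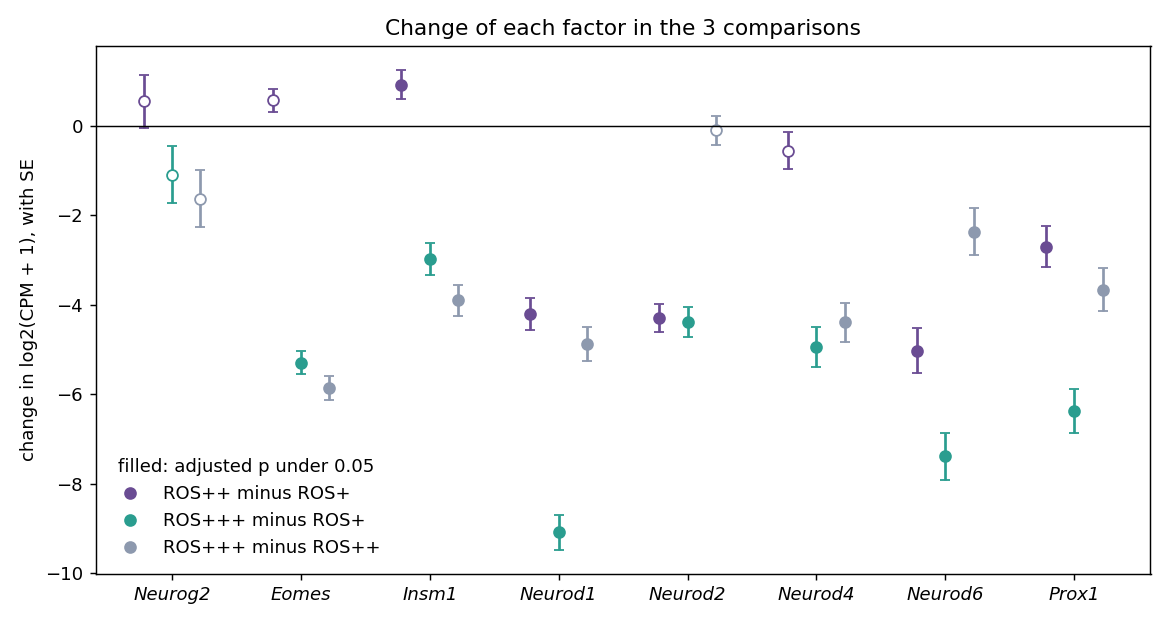
Change of each factor in the 3 comparisons, in log2(CPM + 1) on the vertical axis, with the SE as a bar and filled points for an adjusted p under 0.05. In ROS++ minus ROS+ the points of Neurod1, Neurod2, Neurod6 and Prox1 lie between -5.03 and -2.71, those of Neurog2, Eomes and Insm1 lie above 0 and that of Neurod4 lies at -0.55.

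To compare genes with one another, levels were divided by exon length and are given as CPM per kilobase. In ROS+ the order was Neurod1 at 563.7 ± 94.3, Neurod6 at 88.2 ± 14.3, Prox1 at 32.1 ± 8.59, Eomes at 11.2 ± 3.06, Neurod4 at 9.87 ± 3.52, Neurod2 at 8.52 ± 2.11, Insm1 at 2.60 ± 0.387 and Neurog2 at 1.09 ± 0.351 CPM per kilobase (SD, n = 5). Only Eomes, Neurod4 and Neurod2 overlap with their neighbours in that order. In ROS++ Neurod1 still led at 31.8 ± 11.8, but Eomes came next at 16.6 ± 3.41, with libraries of the 2 genes overlapping, followed by Neurod4 at 7.94 ± 6.08, Insm1 at 5.62 ± 2.95, Prox1 at 5.41 ± 2.86, Neurog2 at 3.06 ± 3.55, Neurod6 at 3.02 ± 1.86 and Neurod2 at 0.130 ± 0.0869 CPM per kilobase. Each gene in that order overlaps with the next. In ROS+++ no member averaged over 0.915 CPM per kilobase, and the order rests on few reads.

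The proportions among the 8 genes also differed between the classes. Summed over the 8 genes, the level was 576 to 844 CPM per kilobase among ROS+ libraries, 39.0 to 90.0 among ROS++ libraries and 0.530 to 3.04 among ROS+++ libraries. Neurod1 made up 75.3% to 80.3% of that sum in ROS+ and 31.1% to 54.1% in ROS++. Eomes made up 1.10% to 1.86% in ROS+ and 19.1% to 27.7% in ROS++, and Insm1 0.301% to 0.414% in ROS+ and 5.05% to 14.0% in ROS++. The ranges of these 3 genes do not overlap between ROS+ and ROS++, whereas Prox1 made up 3.77% to 5.71% in ROS+ and 3.94% to 12.2% in ROS++, which overlap. A share depends on the other members, so that these values describe proportions and not amounts.

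A within-library contrast asked whether a member changed by another amount than Eomes did. For each library of ROS++ and ROS+ the log2(CPM + 1) of Eomes was subtracted from that of the member, which leaves the scaling of the library out apart from the pseudocount. Neurod1 stood 0.27 ± 0.46 above Eomes in ROS++ and 5.04 ± 0.34 above it in ROS+ (SD, n = 5 each), a difference of -4.77. For Neurod6 the values were -3.56 ± 1.49 in ROS++ and 2.03 ± 0.42 in ROS+, a difference of -5.59. For Neurod2 they were -5.62 ± 0.56 in ROS++ and -0.77 ± 0.45 in ROS+, a difference of -4.85, and for Prox1 -0.77 ± 0.63 in ROS++ and 2.51 ± 0.27 in ROS+, a difference of -3.27. For each of these 4 genes all ROS++ libraries lie below all ROS+ libraries, and the exact two-sided permutation test gave p = 0.00794, the smallest that 5 libraries against 5 allow, and 0.0139 after Benjamini-Hochberg adjustment over the 7 genes compared.

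The other 3 factors were not shown to change by another amount than Eomes. Neurod4 differed by -1.12, at -1.62 ± 0.92 in ROS++ and -0.50 ± 0.34 in ROS+ (exact permutation p = 0.0476, adjusted p = 0.0667), and passed without ROS++ replicate 5 (-1.45, adjusted p = 0.0222). Insm1 differed by 0.35 (exact permutation p = 0.198, adjusted p = 0.231). Neurog2 differed by -0.02, at -3.81 ± 1.54 in ROS++ and -3.78 ± 0.61 in ROS+ (exact permutation p = 0.968, adjusted p = 0.968), and its wide spread in ROS++ leaves room for a change in either direction. Because the members had been seen to differ in these libraries before, the contrast describes the size of the difference and is no independent evidence of it.

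**Figure D3:**
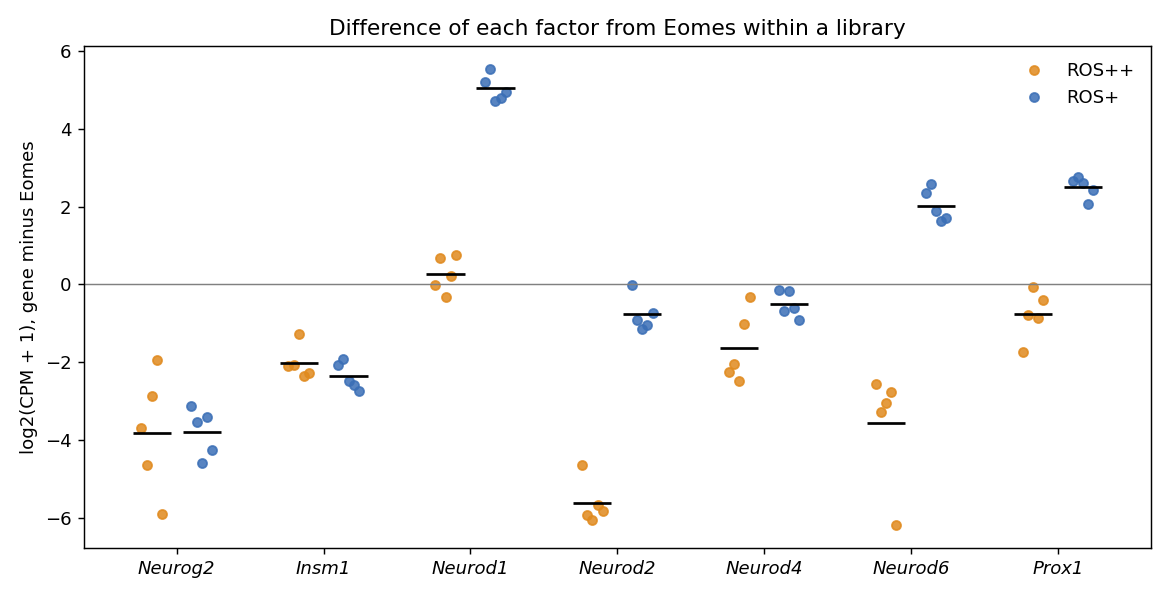
Difference of each factor from Eomes in the same library, in log2(CPM + 1) on the vertical axis, for the 5 ROS++ libraries (left of each pair) and the 5 ROS+ libraries (right), with class means as lines. For Neurod1, Neurod2, Neurod6 and Prox1 all ROS++ points lie below all ROS+ points, and for Neurog2, Insm1 and Neurod4 the points overlap.

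The partners and inhibitors of the bHLH factors moved in several directions. Of 17 such genes, 9 were called higher and 3 lower in ROS++ against ROS+, 9 higher and 4 lower in ROS+++ against ROS+, and 7 higher and 8 lower in ROS+++ against ROS++, with median changes of 1.06, 1.04 and -0.38. Counts for this list and the lists below stand beside the shares of all genes tested. These were 16.4% higher and 13.2% lower in ROS++ against ROS+. They were 19.2% and 40.0% in ROS+++ against ROS+, and 9.89% and 29.2% in ROS+++ against ROS++. The medians of all genes were -0.03, -0.44 and -0.34. The Notch effector Heyl averaged 7.44 ± 5.23 CPM across ROS+ libraries, 242 ± 149 across ROS++ libraries and 892 ± 162 across ROS+++ libraries (SD), a rise of 6.92 ± 0.43 in ROS+++ against ROS+ (limma, adjusted p = 3.04e-09). Hes1, a repressor of proneural genes, averaged 5.23 ± 2.42 CPM across ROS+ libraries, 34.9 ± 7.77 across ROS++ libraries and 109.8 ± 24.2 across ROS+++ libraries, and rose by 2.58 ± 0.28 in ROS++ against ROS+ (limma, adjusted p = 1.53e-06). Id1, Id3 and Id4, which bind E-proteins and keep them from bHLH factors, rose by 1.93, 2.49 and 3.36 in ROS++ against ROS+ (adjusted p = 0.00127, 0.000492 and 3.14e-05). Id2, of the same family, fell by 1.20 ± 0.14 in ROS++ against ROS+ (limma, adjusted p = 3.37e-06), and so did the E-protein gene Tcf4, by 0.97 ± 0.12 (adjusted p = 5.32e-06), and the co-repressor gene Cbfa2t2, by 0.96 ± 0.26 (adjusted p = 0.00846). These 3 and Hes6 were the 4 called lower in ROS+++ against ROS+. Mural markers, a list that includes the receptor gene Notch3, summed to 202 to 737 CPM across ROS+ libraries, 8717 to 25370 across ROS++ libraries and 56510 to 65429 across ROS+++ libraries, and their part in the rise of Heyl, Hes1 and the Id genes was not tested.

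Other neurogenic transcription factors were mostly highest in ROS+. Of 36 listed, 31 were tested, with 17 lower and 3 higher in ROS++ against ROS+ and 26 lower and 1 higher in ROS+++ against ROS+, and with medians of -1.13 and -2.59. In ROS+++ against ROS++, 22 were lower and 2 higher, with a median of -1.89. The nuclear factor I genes, which act in glial and neuronal differentiation, had the smallest adjusted p. Nfib averaged 5186 ± 742 CPM across ROS+ libraries, 948 ± 139 across ROS++ libraries and 200 ± 69.3 across ROS+++ libraries and fell by 4.76 ± 0.21 in ROS+++ against ROS+ (limma, adjusted p = 2.86e-11). In that comparison Nfix fell by 4.65 ± 0.24 (adjusted p = 4.36e-11) and Nfia fell by 2.01 ± 0.13 (adjusted p = 4.80e-10). Among the genes higher in ROS++ were Pax6, a homeobox gene of stem cells and progenitors, at 54.8 CPM in ROS++, against 23.9 CPM in ROS+ (1.17 ± 0.23, adjusted p = 0.000847), and Tox3 at 40.9 CPM in ROS++, against 18.2 CPM in ROS+ (1.13 ± 0.38, adjusted p = 0.0323). Klf7 was the gene higher in ROS+++ against ROS+ (0.59 ± 0.17, adjusted p = 0.00644), and Klf7 and Bhlhe22 the 2 higher in ROS+++ against ROS++ (1.05 ± 0.17 and 0.98 ± 0.37, adjusted p = 0.000116 and 0.0420).

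**Figure D4:**
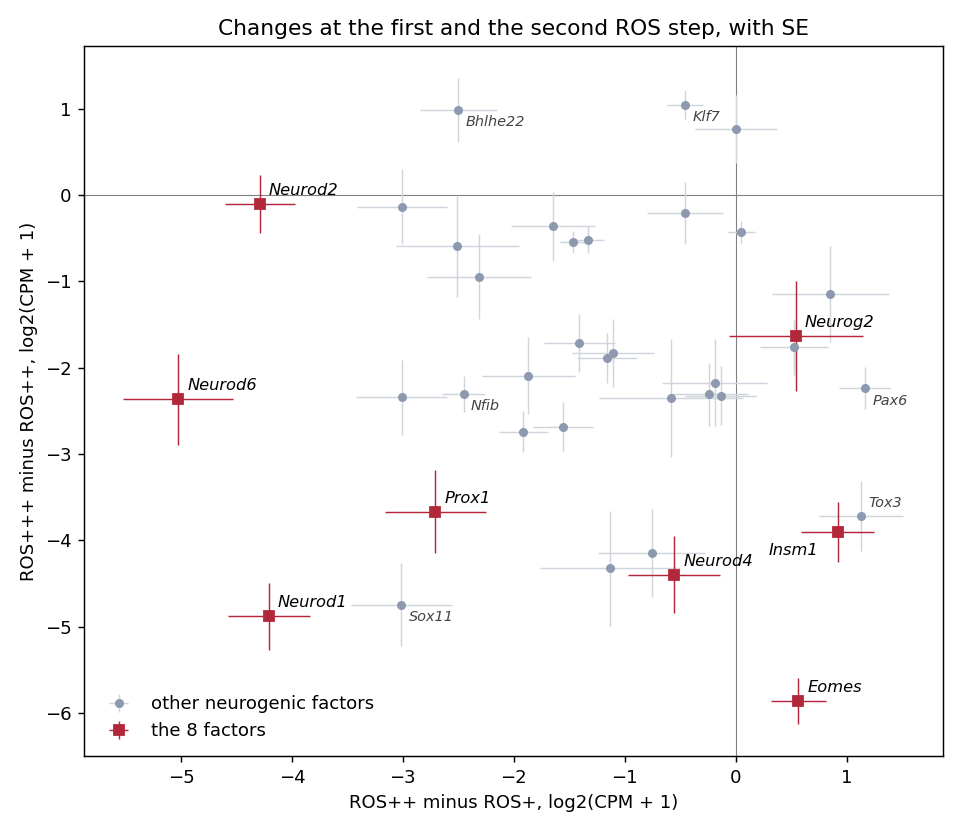
Change in ROS++ minus ROS+ on the horizontal axis and in ROS+++ minus ROS++ on the vertical axis, in log2(CPM + 1) with SE bars, for the 8 factors (squares) and those of the other neurogenic factors that are reported (circles). Eomes lies lowest on the vertical axis at -5.86 and right of 0, Neurod2 lies far left at -4.29 with a second change of -0.11, and Neurod1 is low on both axes; the axes share the ROS++ libraries, so that no relation is read between them.

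Most genes reported to lie downstream of proneural factors were lower in ROS+++ than in the other classes. Of 24 listed, 22 were tested, with 11 lower and 0 higher in ROS++ against ROS+, 20 lower and 1 higher in ROS+++ against ROS+, and 18 lower and 1 higher in ROS+++ against ROS++, with medians of -0.89, -3.15 and -2.28. Igfbpl1, a gene of neuroblasts, averaged 86.2 ± 6.08 CPM across ROS+ libraries, 16.6 ± 7.11 across ROS++ libraries and 0.251 ± 0.0798 across ROS+++ libraries, and it fell by 6.12 ± 0.31 in ROS+++ against ROS+ (limma, adjusted p = 4.59e-11). The RNA-binding protein gene Elavl2 fell by 6.05 ± 0.35 and the somatostatin receptor gene Sstr2 by 5.86 ± 0.36 in the same comparison (adjusted p = 1.58e-10 and 3.34e-10). Rnd3, a small GTPase gene, was the 1 gene higher in ROS+++, at 149.6 ± 18.3 CPM across ROS+ libraries, 101 ± 21.7 across ROS++ libraries and 447 ± 31.9 across ROS+++ libraries (1.58 ± 0.14 against ROS+, adjusted p = 4.45e-08). The Notch ligand genes Dll1 and Dll3, which neurogenic progenitors carry, were not called in ROS++ minus ROS+ (0.28 ± 0.42 and 0.29 ± 0.29, limma, adjusted p = 0.659 and 0.498) and changed by -3.28 ± 0.44 and -1.69 ± 0.31 in ROS+++ minus ROS++ (adjusted p = 1.83e-05 and 0.000299).

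Most granule neuron maturation genes were lower in ROS++ and in ROS+++ than in ROS+. Of 24 listed, 18 were tested, with 10 lower and 1 higher in ROS++ against ROS+, 16 lower and 1 higher in ROS+++ against ROS+, and 12 lower and 0 higher in ROS+++ against ROS++, with medians of -0.82, -2.47 and -1.51. Map2, a dendritic microtubule protein gene, averaged 598 ± 28.3 CPM across ROS+ libraries, 333 ± 44.4 across ROS++ libraries and 108 ± 25.7 across ROS+++ libraries and fell by 2.48 ± 0.14 in ROS+++ against ROS+ (limma, adjusted p = 1.24e-10). The glutamate receptor gene Grin2b fell by 3.34 ± 0.27 and the synaptic gene Snap25 by 4.87 ± 0.41 in that comparison (adjusted p = 9.04e-09 and 9.97e-08). Dock10 was the 1 gene called higher, in ROS++ by 0.52 ± 0.16 and in ROS+++ by 0.82 ± 0.17 against ROS+ (adjusted p = 0.0172 and 0.000401).

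Most cell cycle genes were higher in ROS++ than in either other class. Of 20 tested, 13 were higher and 0 lower in ROS++ against ROS+, 12 lower and 0 higher in ROS+++ against ROS+, and all 20 lower in ROS+++ against ROS++, with medians of 1.54, -1.69 and -3.16. Mcm5, a helicase gene of DNA replication, averaged 52.9 ± 11.1 CPM across ROS+ libraries, 108.5 ± 40.1 across ROS++ libraries and 9.47 ± 2.57 across ROS+++ libraries. It rose by 0.98 ± 0.24 in ROS++ against ROS+ (limma, adjusted p = 0.00520) and fell by 3.35 ± 0.26 in ROS+++ against ROS++ (adjusted p = 8.44e-08). Mcm2 and the mitotic kinase gene Aurkb rose by 1.33 ± 0.39 and 2.18 ± 0.55 in ROS++ against ROS+ (adjusted p = 0.0151 and 0.00551), and fell by 3.36 ± 0.41 and 4.54 ± 0.58 in ROS+++ against ROS++ (adjusted p = 6.87e-06 and 1.00e-05).

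Genes whose pattern over the 14 libraries was most like that of a member were listed by Pearson's r on log2(CPM + 1), as a description in which the differences between the classes weigh most. Eomes was most like Inava, Dcaf12l1 and Arxes1 (r = 0.979, 0.978 and 0.977), and Insm1 most like Hmgn2, Mfap2 and Tmem40 (0.973, 0.965 and 0.963). For Neurod4 the genes were Amph, Rprm and Mc5r (0.982, 0.981 and 0.980). For Neurod1 they were Rufy3, Celf2 and Ip6k2 (0.991, 0.988 and 0.988), for Neurod2 Dusp14, Islr2 and Zfp385b (0.981, 0.980 and 0.980), for Neurod6 Lysmd4, 4933434E20Rik and Igsf3 (0.977, 0.975 and 0.971), and for Prox1 G2e3, Wdr6 and Jpt1 (0.990, 0.989 and 0.983). Neurog2 had no gene above 0.879, reached by Derl3, with Enpp4 at 0.876 and Dlg1 at 0.873. Among the members Eomes was closest to Insm1 (0.973) and Neurod4 (0.951), Neurod1 to Prox1 (0.953), and Neurod2 to Neurod6 (0.920).

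Markers of several other cell types differed between the same classes. Microglia and macrophage markers, of which all 14 tested were called higher in ROS++ and in ROS+++ against ROS+, summed to 3.80 to 17.5 CPM across ROS+ libraries, 947 to 2246 across ROS++ libraries and 756 to 3002 across ROS+++ libraries. All 15 mural markers were likewise called higher in both. Radial glia-like and astrocyte markers were higher for 15 of 15 in ROS++ and 14 of 15 in ROS+++ against ROS+, with sums of 1423 to 2078 CPM across ROS+ libraries, 7012 to 9998 across ROS++ libraries and 3184 to 8544 across ROS+++ libraries. Fabp7, of the same list, was called lower in ROS+++ against ROS+, by 1.00 ± 0.20 (limma, adjusted p = 0.000397). In ROS+++ against ROS++, 0 of these markers were called higher and 5 lower. Endothelial markers summed to 148 to 371 CPM across ROS+ libraries, 209 to 612 across ROS++ libraries and 1406 to 1672 across ROS+++ libraries. Of 15 endothelial markers, 2 were called higher and 1 lower in ROS++ against ROS+, and 6 higher and 0 lower in ROS+++ against ROS+. Esam and Emcn, at 940 and 261 CPM on average, made up most of the ROS+++ sum. Flt1, Tek, Tie1 and Slco1a4 were also called higher in ROS+++ against ROS+, by 1.77, 1.51, 1.97 and 1.39 (limma, adjusted p = 0.0174, 0.00703, 0.00153 and 0.0364). Pecam1, Cdh5, Cldn5 and Vwf were among the markers not called in either comparison. Oligodendrocyte lineage markers summed to 3692 to 8043 CPM across ROS+ libraries, 4608 to 12291 across ROS++ libraries and 613 to 875 across ROS+++ libraries. Of these 15 markers, 4 were called higher and 0 lower in ROS++ against ROS+, and 1 higher and 9 lower in ROS+++ against ROS+. Prox1 is also a factor of lymphatic endothelium, and 3 of 6 of its markers were listed, summing to 70.6 to 90.5 CPM across ROS+ libraries, 128 to 223 across ROS++ libraries and 116 to 180 across ROS+++ libraries. In ROS+, where Prox1 was highest, Pdpn averaged 73.0 ± 8.14 CPM and Reln 6.83 ± 4.58 CPM (SD), and Lyve1 was at or under 3 reads in every library. No marker of these lists was at 0 in every library of a class. The part of these cells in the lower levels of the members in ROS++ and ROS+++ was not tested.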

How the data were processed

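The table that the authors deposited holds log2 values of 15119 genes in 14 libraries. The tools named in the submitters' processing notes are STAR and edgeR, with build mm10. Their roles and versions, the counter and the annotation are not given in the sources that were used. Per the labels' protocols, RNA was reverse transcribed from a poly-dT primer with template switching and amplified over 12 cycles, with no molecular identifiers. The deposited log2 values are reads scaled to library totals, with a prior of 1 read, as read from the values: every value gave a whole number of reads within 0.001 reads. CPM came from these reads over the library totals. limma 3.58.1 (trend and robust moderation, statmod 1.5.0, R 4.3.3) was fitted to log2(CPM + 1) over all 14 libraries with a mean per class and 11 residual degrees of freedom, for genes with at least 1 CPM in at least 4 libraries (15102 genes, with 17 removed). The fit was tested on simulated data. GENCODE M21 gave symbols for 15060 genes, coordinates and exon lengths.

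The members, the gene lists and the contrast with Eomes were chosen with earlier results of these data known. Named genes are the members, the 3 genes per list with the smallest adjusted p in any comparison, those behind counts of 5 or fewer, genes overlapping a member, and the 3 genes most like each member. Some genes that these rules name are not reported here. Id1, Id3, Id4, Dll1, Dll3, Nes and the endothelial genes were named after their values were seen. The 23 alternatives were 2 other scalings, the deposited values, a pseudocount of 0.25 CPM, no filter, limma-voom, no robust moderation, 2 classes only, a replicate block and leaving out each of the 14 libraries.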

Additional observations from a re-analysis of the deposited data

Results flagged for a closer look

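In each class the highest or lowest library of each factor was compared with the gap to its nearest neighbour, on the log2(CPM + 1) scale. Of 24 groups of libraries, 4 held a library apart from the others by Dixon's 95% value, where chance gives about 1 in 20. Neurog2 had 2.85 CPM in ROS+++ replicate 2, the highest library of that class. Eomes had 44.99 CPM in ROS++ replicate 1, the lowest of that class. Neurod4 had 0.0787 CPM in ROS+++ replicate 4, which is 1 read as in each other ROS+++ library, in a library of 12704227 reads. Neurod6 had 0 CPM in ROS++ replicate 5, where 3 reads correspond to 0.164 CPM.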

How the results depend on the processing

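Over the 23 alternatives the calls of Neurod1, Neurod2, Prox1, Neurod6, Eomes, Insm1 and Neurod4 in ROS+++ minus ROS+, of Neurod1, Neurod2, Neurod6 and Prox1 in ROS++ minus ROS+, and of Neurod1, Prox1, Eomes, Insm1 and Neurod4 in ROS+++ minus ROS++ kept their direction and stayed past the threshold. The call of Neurod6 in ROS+++ minus ROS++ was lost in limma-voom. The count of members called higher in ROS++ minus ROS+, 1 in the report, was 0 with the deposited log2 values and with a pseudocount of 0.25 CPM, 2 with limma-voom, and 0 to 2 when 1 library was left out. The Neurog2 change in ROS+++ minus ROS+ passed in the fit of these 2 classes alone (adjusted p = 0.0308), and the cause was not tested.

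The within-library difference from Eomes ranged from -0.49 to 0.50 for Neurog2 when 1 library was left out, so that its sign is not fixed, and from -1.45 to -0.90 for Neurod4. Libraries were cut into sets of consecutive library numbers for a replicate block. The deviations of libraries of 1 set correlated at -0.02 to 0.23 (median 0.084), over 0.1 in 3 of 13 pairs. Libraries of different sets correlated at -0.15 to 0.16 (median -0.009), over 0.1 in 2 of 52 pairs. Libraries of 1 set were thus slightly more alike. The labels do not say what the numbers mark, and the main tests took no pairs. With that block as an exact sign-flip test over 5 sets, which allows no p below 0.0625, the differences of -4.77 for Neurod1, -4.85 for Neurod2, -5.59 for Neurod6 and -3.27 for Prox1 had an adjusted p of 0.109. The block in the limma fit changed 1 member's call, that of Neurog2 in ROS+++ minus ROS++ (adjusted p = 0.0368). Depth limits the members in ROS+++, where 3 reads correspond to 0.143 to 0.236 CPM and Eomes, Insm1, Neurod4 and Neurod6 lie at about that level. Neurod2 and Neurog2 had medians of 0.195 and 0.237 CPM in ROS+++, each with 2 of 4 libraries at or under 3 reads.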

Other observations

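Of 15 markers of GABAergic neurons, a lineage that does not pass through Neurod1 and Prox1 in the way granule neurons do, 5 were listed, and their sum was 39.6 to 68.7 CPM across ROS+ libraries, 44.0 to 75.2 across ROS++ libraries and 6.62 to 18.4 across ROS+++ libraries. In ROS++ minus ROS+ their adjusted p lay between 0.0532 (Npy, a change of 1.06 ± 0.40) and 0.902 (Pvalb, -0.07 ± 0.34; limma). Gad1, which encodes a GABA-synthesising enzyme, averaged 38.0 ± 10.9 CPM across ROS+ libraries, 24.6 ± 17.3 across ROS++ libraries and 3.36 ± 2.55 across ROS+++ libraries and fell by 3.39 ± 0.56 in ROS+++ against ROS+ (limma, adjusted p = 4.89e-05). Npy and Pvalb, a neuropeptide gene and a calcium-binding protein gene of interneurons, also fell in ROS+++ against ROS+, by 1.62 ± 0.42 and 1.92 ± 0.36 (limma, adjusted p = 0.00307 and 0.000212). Sp8 was not called in any comparison.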
